A study of Mus musculus with 18 samples.

Results

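The genes described here are 10 targets of the transcription factor ATF4 that make non-essential amino acids or bring cystine into the cell. They were chosen by symbol as Phgdh, Psat1, Psph, Shmt2, Mthfd2, Asns, Aldh18a1, Pycr1, Slc7a11 and Slc3a2, and all 10 were found among the 54186 symbols of the table. All 10 also passed the filter on low counts, which left 20244 genes for testing. Their levels were measured by bulk RNA sequencing of pancreatic islets from 18 FVB mice aged 6 weeks, with 1 library per mouse. The 6 hIAPP mice carried a transgene for human islet amyloid polypeptide (IAPP), a beta cell peptide hormone whose human form is prone to aggregate. The 6 rIAPP mice carried a transgene for the rodent form, which is not prone to aggregate, and the insulin II promoter drove both transgenes in beta cells. The 6 wild-type (WT) mice had the same background and no transgene. Libraries are named by genotype and number, and the numbers pair nothing.

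ATF4 is a transcription factor whose translation rises when kinases phosphorylate the initiation factor eIF2α, as happens when amino acids run short or unfolded protein collects in the endoplasmic reticulum. It binds composite C/EBP-ATF elements and raises transcription of genes for amino acid synthesis, amino acid transport and tRNA charging. Beta cells, which make large amounts of secretory protein, carry the eIF2α kinase PERK and are known to depend on it.

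The letters TGATGNAA, the core of such a composite element, were searched on both strands in windows from 250 bases before to 50 bases after each gene start in RefSeq on GRCm38.p6. All 10 genes had a window, and 3 of them held the letters. Of 27025 genes with a window, 4.51% held them. A match is a description of the sequence and was not tested for binding. The windows of Slc7a11, Asns and Pycr1 are printed because they are the 3 with a match. Each is given 5′ to 3′ on the strand of the gene, and capitals mark the match.
Slc7a11 (chr3:50443564-50443863, minus strand): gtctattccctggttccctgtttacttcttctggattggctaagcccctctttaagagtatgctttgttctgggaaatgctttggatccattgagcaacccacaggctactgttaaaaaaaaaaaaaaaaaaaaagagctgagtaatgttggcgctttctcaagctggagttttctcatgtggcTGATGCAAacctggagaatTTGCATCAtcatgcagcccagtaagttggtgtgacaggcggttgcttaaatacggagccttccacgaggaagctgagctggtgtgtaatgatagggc
Asns (chr6:7693160-7693459, minus strand): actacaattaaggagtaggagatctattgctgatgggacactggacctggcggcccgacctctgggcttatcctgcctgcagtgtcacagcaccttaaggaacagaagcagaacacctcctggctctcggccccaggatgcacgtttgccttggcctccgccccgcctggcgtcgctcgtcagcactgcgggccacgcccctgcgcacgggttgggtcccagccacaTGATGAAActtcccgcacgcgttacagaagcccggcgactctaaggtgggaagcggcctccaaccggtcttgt
Pycr1 (chr11:120643699-120643998, minus strand): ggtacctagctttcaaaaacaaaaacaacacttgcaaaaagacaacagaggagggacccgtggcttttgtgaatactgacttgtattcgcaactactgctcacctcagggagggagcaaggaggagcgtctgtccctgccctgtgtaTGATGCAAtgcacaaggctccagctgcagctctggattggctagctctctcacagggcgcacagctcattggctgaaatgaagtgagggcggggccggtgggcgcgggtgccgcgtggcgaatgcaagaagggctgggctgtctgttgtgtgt

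Slc7a11 held the letters on both strands, from 66 to 59 and from 47 to 40 bases before its start. Asns held them from 23 to 16 bases before its start, and Pycr1 from 103 to 96 bases before. The other 7 genes had no match in this window, which says nothing of elements further away or in introns. For comparison, 6 of 15 ATF4 regulators and targets outside the 10, Atf4 included, held the letters in the same window, namely Atf3, Chac1, Fgf21, Nupr1, Trib3 and Vldlr.

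Library totals were 109.6 to 166.2 M estimated counts. Beta cell markers were present in every library, and 10 of them together took 13.2% ± 0.724 of the WT counts (SD, n = 6), 10.6% ± 1.93 in hIAPP and 9.35% ± 1.02 in rIAPP. This share was lower than in WT in hIAPP (exact two-sided permutation p = 0.00433, adjusted over 9 marker tests 0.00557) and in rIAPP (exact p = 0.00216, adjusted 0.00390). In hIAPP against WT 7 of the 10 fell, beside 7.53% of all tested genes. In rIAPP against WT 9 of the 10 fell, all but Iapp, beside 12.6% of all tested genes. In bulk islets, fewer cells of a type and less RNA per cell cannot be told apart. The summed share of 20 acinar (exocrine) markers was 0.103% to 0.438% in WT, 0.280% to 2.19% in hIAPP and 0.517% to 2.11% in rIAPP. It was higher in hIAPP than in WT (exact two-sided permutation p = 0.00433, adjusted over 9 marker tests 0.00557) and in rIAPP than in WT (exact p = 0.00216, the smallest that 6 against 6 can give, adjusted 0.00390). Libraries hIAPP 5 and hIAPP 6, at 1.33% and 2.19%, had the largest acinar shares of the hIAPP group. The share of 13 macrophage markers was 0.0130% to 0.0156% in WT, 0.0382% to 0.0856% in hIAPP and 0.0101% to 0.0115% in rIAPP, with no overlap between genotypes. The share of 8 stellate and mesenchymal markers was 0.0374% to 0.0671% in WT, 0.0600% to 0.137% in hIAPP and 0.103% to 0.181% in rIAPP. Against WT, 6 of the 8 rose in hIAPP and 7 in rIAPP, beside 8.31% and 14.1% of all tested genes. The share of 7 endothelial markers was 0.0538% to 0.0673% in WT, 0.0516% to 0.0661% in hIAPP and 0.0772% to 0.0889% in rIAPP. All 7 rose in rIAPP against WT, beside 14.1% of all tested genes. The part of the stellate and endothelial shares in the results on the 10 genes was not tested.

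All 10 genes rose in hIAPP islets relative to WT, where 8.31% of all tested genes rose and 7.53% fell, 15.8% in all (edgeR, adjusted p under 0.05). In rIAPP islets 9 of the 10, all but Slc3a2, rose relative to WT, where 14.1% of all tested genes rose and 12.6% fell, 26.8% in all. The largest changes were in Slc7a11, the cystine transporter, at 4.55-fold in hIAPP and 4.12-fold in rIAPP. Pycr1, Phgdh, Mthfd2 and Psat1 about doubled in hIAPP, and the remaining genes rose by less. The median log2 fold change of the 10 genes was 0.71 for hIAPP against WT and 0.57 for rIAPP against WT, and that of all tested genes was -0.01 in both. These comparisons share the WT libraries, and the values of each are given side by side. The acinar share was also higher in both transgenic genotypes, and with an acinar score in the fit 3 of the 10 genes rose in each comparison. Of the 20244 tested genes, 480 then rose in hIAPP and 1190 in rIAPP, against 1683 and 2860 without the score.

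**Figure D1:**
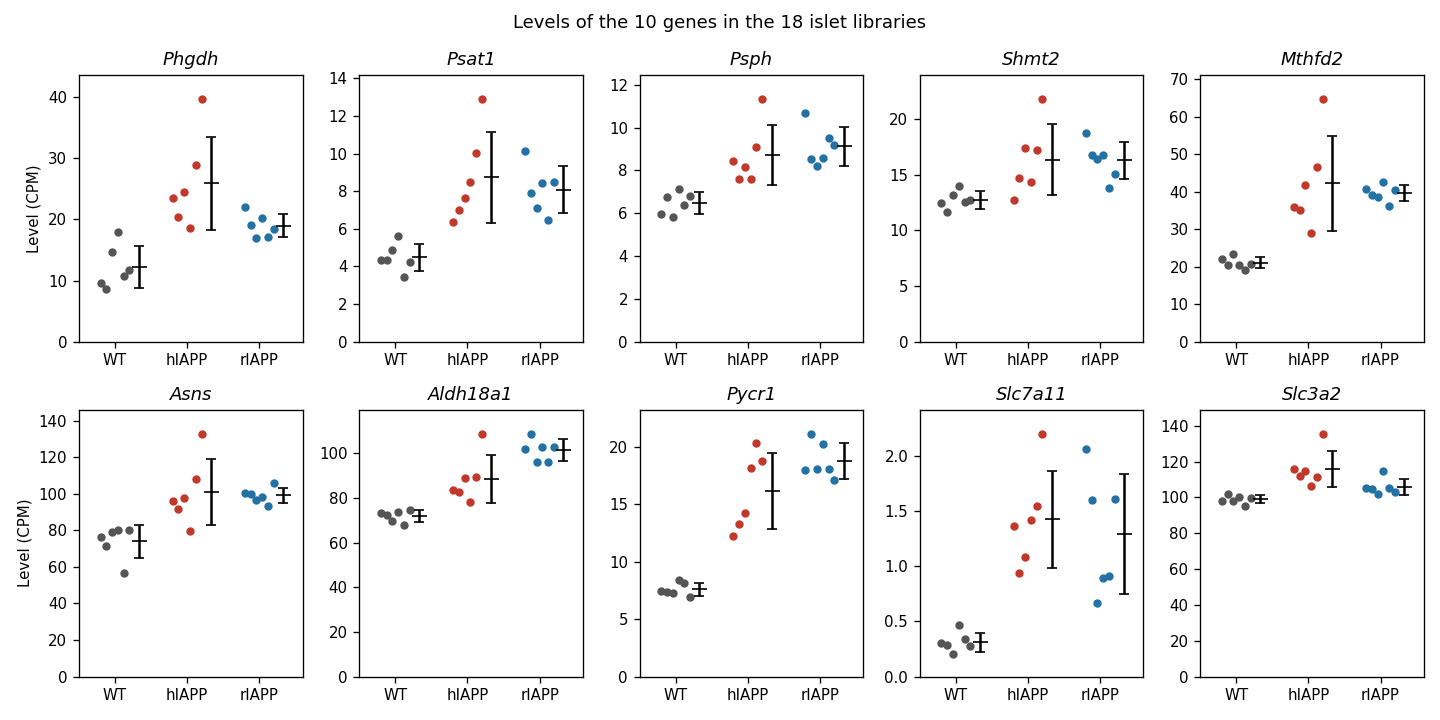
Level of each of the 10 genes in CPM, counts scaled to a common library total (vertical axes, 1 panel per gene) in each library, grouped by genotype on the horizontal axis; points are libraries and bars give the mean and SD of 6. For 8 genes every hIAPP library lay above every WT library, and Asns and Shmt2 had 1 hIAPP library within the WT range. The share of all tested genes that separated in this way was not counted.

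Serine synthesis from a glycolytic intermediate takes 3 enzymes, and all 3 genes rose in both transgenic genotypes. Phgdh encodes phosphoglycerate dehydrogenase, which catalyses the first and committed step. Its level in WT islets was 8.65 to 17.9 CPM (counts scaled to a common library total) with a median of 11.2, in hIAPP 18.6 to 39.7 with a median of 24.0, and in rIAPP 16.9 to 22.0 with a median of 18.8. The lowest hIAPP library lay above the highest WT library, which was WT 4, while 2 of 6 rIAPP libraries lay within the WT range. Phgdh rose by a log2 fold change of 1.09 ± 0.17 (SE) in hIAPP against WT (edgeR adjusted p = 2.66e-04) and by 0.64 ± 0.17 in rIAPP against WT (edgeR adjusted p = 0.00862). The gene lies on chromosome 3 at 98313170 to 98339990 (GRCm38), and a processed pseudogene, Phgdh-ps1, on chromosome 7 could share some of its reads.

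Psat1, on chromosome 19 at 15904678 to 15947337, encodes phosphoserine aminotransferase, the second enzyme. It was at 3.43 to 5.64 CPM in WT with a median of 4.35, at 6.36 to 12.9 CPM in hIAPP with a median of 8.06, and at 6.47 to 10.1 CPM in rIAPP with a median of 8.17. Neither transgenic group overlapped WT, and the rIAPP range lay within the hIAPP range. The log2 fold change was 0.96 ± 0.15 in hIAPP (edgeR adjusted p = 2.65e-04) and 0.85 ± 0.15 in rIAPP (edgeR adjusted p = 2.59e-04). Psph, on chromosome 5 at 129765558 to 129787449, encodes phosphoserine phosphatase, the last enzyme. Its level was 5.83 to 7.12 CPM in WT, 7.58 to 11.3 CPM in hIAPP and 8.22 to 10.7 CPM in rIAPP, with medians of 6.58, 8.31 and 8.88. Again neither transgenic group overlapped WT, but the difference was smaller than for the other serine genes. It came to a log2 fold change of 0.42 ± 0.09 in hIAPP (edgeR adjusted p = 0.00425) and 0.49 ± 0.09 in rIAPP (edgeR adjusted p = 4.33e-04). Psph overlaps Cct6a on the opposite strand, and Psat1 contains the opposite-strand pseudogene Gm3329. The strand setting of the counting is not given in the sources used here, so reads of such pairs cannot be told apart.

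Serine then feeds the mitochondrial one-carbon pathway, where Mthfd2 doubled and Shmt2 rose slightly. Shmt2, the mitochondrial serine hydroxymethyltransferase that passes a carbon from serine to tetrahydrofolate, lies on chromosome 10 at 127517123 to 127522444. It was at 11.6 to 14.0 CPM in WT with a median of 12.6, at 12.7 to 21.8 CPM in hIAPP with a median of 15.9, and at 13.8 to 18.8 CPM in rIAPP with a median of 16.6. In each transgenic group 5 of 6 libraries lay above the highest WT library. The log2 fold change was 0.36 ± 0.10 in hIAPP (edgeR adjusted p = 0.0204) and 0.35 ± 0.10 in rIAPP (edgeR adjusted p = 0.0131). Without hIAPP 6 the hIAPP value was 0.26 and no longer passed (edgeR adjusted p = 0.0544, range 0.00577 to 0.0544 over the 18 fits that each left out 1 library). Its 3′ end overlaps Ndufa4l2 on the opposite strand.

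Mthfd2 encodes the mitochondrial methylenetetrahydrofolate dehydrogenase of growing and stressed cells and lies on chromosome 6 at 83305691 to 83325908. Its level was 19.2 to 23.3 CPM in WT, 29.0 to 64.7 CPM in hIAPP and 36.1 to 42.7 CPM in rIAPP, with medians of 20.6, 38.9 and 39.8. Every transgenic library lay above every WT library, and hIAPP 6 stood highest. The log2 fold change was 1.005 ± 0.13 in hIAPP (edgeR adjusted p = 2.94e-05) and 0.92 ± 0.13 in rIAPP (edgeR adjusted p = 1.73e-05).

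Of 5 other enzymes of the same or linked reactions, Aldh1l2 was the one that rose. Shmt1, the cytosolic counterpart of Shmt2, had log2 fold changes of 0.22 in hIAPP (edgeR adjusted p = 0.257) and -0.05 in rIAPP (edgeR adjusted p = 0.840). Mthfd1, the cytosolic trifunctional enzyme, fell from 124 CPM in WT to 90.2 CPM in hIAPP and 67.8 CPM in rIAPP, a log2 fold change of -0.46 ± 0.09 (edgeR adjusted p = 0.00180) and -0.87 ± 0.09 (edgeR adjusted p = 3.84e-07). Mthfd1l, the mitochondrial formate-producing synthetase, also fell in both, with log2 fold changes of -0.27 ± 0.08 and -0.23 ± 0.08 (edgeR adjusted p = 0.0205 and 0.0274). The hIAPP call was lost without WT 6, at -0.20, and the rIAPP call without WT 6, rIAPP 1, rIAPP 2 or rIAPP 5, at -0.17 to -0.22. Both calls were also lost with library totals, at -0.15 and -0.11, and with the acinar score, at -0.29 and -0.26. The hIAPP call was lost without hIAPP 5 and hIAPP 6, at -0.28, and the rIAPP call in a fit of the 2 genotypes alone, at -0.22. Mthfd2l, a close relative of Mthfd2, fell in hIAPP with a log2 fold change of -0.40 ± 0.10 (edgeR adjusted p = 0.0108) and had -0.16 in rIAPP (edgeR adjusted p = 0.260). The hIAPP call was lost without hIAPP 5 and hIAPP 6, at -0.26, and with library totals, at -0.28. Aldh1l2, the mitochondrial formyltetrahydrofolate dehydrogenase, rose from 22.0 CPM in WT to 57.7 CPM in hIAPP and 50.8 CPM in rIAPP. Its log2 fold change was 1.39 ± 0.19 in hIAPP (edgeR adjusted p = 6.44e-05) and 1.21 ± 0.19 in rIAPP (edgeR adjusted p = 7.27e-05). Among 18 folate and one-carbon genes outside the 10, 3 rose, 4 fell and 11 did not pass in hIAPP against WT, with a median log2 fold change of 0.01, beside 8.31% of all tested genes that rose and 7.53% that fell. In rIAPP against WT, 6 of the 18 rose and 2 fell, with a median of 0.02, beside 14.1% and 12.6% of all tested genes.

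**Figure D2:**
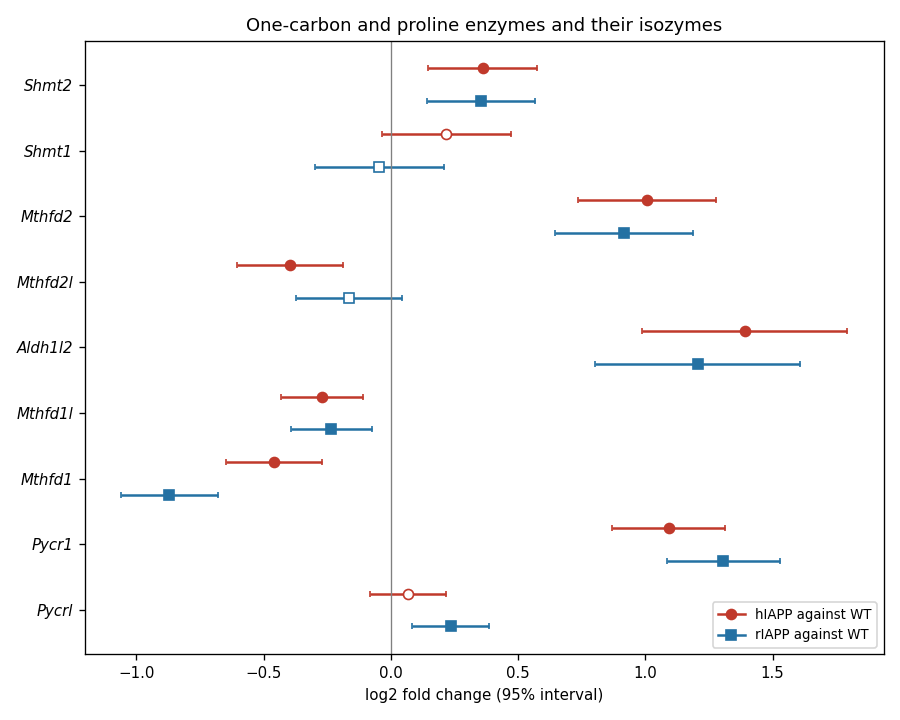
Log2 fold change against WT (horizontal axis, with 95% intervals of the edgeR fit) of one-carbon and proline enzymes that catalyse the same or linked reactions (vertical axis), for hIAPP and rIAPP; filled points passed an adjusted p of 0.05. Shmt2, Mthfd2, Aldh1l2 and Pycr1 lay to the right of 0 in both genotypes, and Mthfd1 and Mthfd1l to the left.

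Asns, on chromosome 6 at 7675169 to 7693254, encodes asparagine synthetase, which makes asparagine from aspartate with glutamine as the nitrogen donor. It was among the most abundant of the 10 genes, at 56.8 to 80.2 CPM in WT with a median of 77.8, 79.6 to 132.8 CPM in hIAPP with a median of 96.8, and 93.5 to 106 CPM in rIAPP with a median of 98.9. The rIAPP group did not overlap WT, and 5 of 6 hIAPP libraries lay above the highest WT library. The log2 fold change was 0.45 ± 0.10 in hIAPP (edgeR adjusted p = 0.00418) and 0.42 ± 0.10 in rIAPP (edgeR adjusted p = 0.00284). Asrgl1, an asparaginase that works in the opposite direction, had log2 fold changes of -0.10 (edgeR adjusted p = 0.337) and 0.04 (edgeR adjusted p = 0.707).

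Proline is made from glutamate, and both genes of that route among the 10 rose in both transgenic genotypes. Aldh18a1, on chromosome 19 at 40550257 to 40588463, encodes the mitochondrial enzyme that reduces glutamate to its semialdehyde at the start of the route. Its level was 67.8 to 74.6 CPM in WT with a median of 72.8, 78.0 to 108.6 CPM in hIAPP with a median of 86.1, and 95.8 to 108.6 CPM in rIAPP with a median of 102. No transgenic library fell within the WT range, and 5 of 6 hIAPP libraries lay below the lowest rIAPP library. The log2 fold change was 0.30 ± 0.06 in hIAPP (edgeR adjusted p = 0.00338) and 0.49 ± 0.06 in rIAPP (edgeR adjusted p = 5.68e-06).

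Pycr1, on chromosome 11 at 120635712 to 120643769, encodes the mitochondrial pyrroline-5-carboxylate reductase that completes proline synthesis. It was at 6.95 to 8.43 CPM in WT, 12.3 to 20.4 CPM in hIAPP and 17.2 to 21.2 CPM in rIAPP, with medians of 7.39, 16.2 and 18.1. Every transgenic library exceeded every WT library, and the rise of 1.09 ± 0.11 on the log2 scale in hIAPP (edgeR adjusted p = 9.53e-07) and 1.31 ± 0.11 in rIAPP (edgeR adjusted p = 1.26e-08) had the smallest p of the 10 genes in each comparison. Pycrl, a cytosolic isozyme also named Pycr3, had a log2 fold change of 0.07 in hIAPP (edgeR adjusted p = 0.604) and rose by 0.23 ± 0.07 in rIAPP (edgeR adjusted p = 0.0189). Of 15 other genes of proline, glutamate, aspartate and alanine metabolism, 2 rose and 1 fell in hIAPP against WT, beside 8.31% and 7.53% of all tested genes. In rIAPP against WT 4 of the 15 rose and 1 fell, beside 14.1% and 12.6% of all tested genes. Gpt2, the mitochondrial alanine aminotransferase, rose in both, with log2 fold changes of 0.60 ± 0.10 (edgeR adjusted p = 4.78e-04) and 0.69 ± 0.10 (edgeR adjusted p = 2.98e-05). Oat, which links ornithine to the same semialdehyde, rose by 0.39 ± 0.08 on the log2 scale in rIAPP (edgeR adjusted p = 8.65e-04). Glul, glutamine synthetase, fell by 0.32 ± 0.08 in hIAPP (edgeR adjusted p = 0.00997) and by 0.92 ± 0.08 in rIAPP (edgeR adjusted p = 2.91e-08). Over 11 alternative fits, the call was lost in 3 for Glul in hIAPP, in 2 for Gpt2 in hIAPP and in 1 for Oat in rIAPP.

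Slc7a11 encodes xCT, the light chain of the transporter that takes up cystine in exchange for glutamate, and lies on chromosome 3 at 49892526 to 50443614. It was the least abundant of the 10 genes, at 0.204 to 0.464 CPM in WT with a median of 0.294, which was 31 to 71 estimated counts per library. In hIAPP its level was 0.937 to 2.20 CPM with a median of 1.39 (128 to 267 counts), and in rIAPP 0.671 to 2.06 CPM with a median of 1.25 (93 to 287 counts). The lowest transgenic library, rIAPP 3, lay above the highest WT library, WT 4. The log2 fold change was 2.19 ± 0.28 in hIAPP (4.55-fold, edgeR adjusted p = 2.78e-05) and 2.04 ± 0.28 in rIAPP (4.12-fold, edgeR adjusted p = 1.18e-05). These were the largest changes of the 10 genes and also had the largest errors. The long Slc7a11 locus is overlapped by 5 other gene models.

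Slc3a2 encodes 4F2hc, the heavy chain that carries xCT and several other amino acid transporters to the membrane, and lies on chromosome 19 at 8706882 to 8723369. Its level was 95.3 to 101.94 CPM in WT with a median of 98.9, 106.3 to 135 CPM in hIAPP with a median of 113, and 102.03 to 114.5 CPM in rIAPP with a median of 104.8. Every transgenic library lay above every WT library, by a narrow margin in rIAPP. The rise of 0.23 ± 0.05 on the log2 scale in hIAPP passed the test (edgeR adjusted p = 0.00512), and the value of 0.10 ± 0.05 in rIAPP did not (edgeR adjusted p = 0.189). With scaling to library totals alone, which moved the median of all genes to 0.10, the rIAPP value was 0.22 and passed. Of 5 other light chains that pair with 4F2hc, 4 could be tested. In hIAPP against WT 2 of the 4 rose and 0 fell, beside 8.31% and 7.53% of all tested genes. In rIAPP against WT 1 rose and 1, Slc7a8, fell at -0.36 on the log2 scale, beside 14.1% and 12.6%. Slc7a5, the light chain for large neutral amino acids, rose in both, with log2 fold changes of 0.46 ± 0.11 (edgeR adjusted p = 0.00844) and 0.35 ± 0.11 (edgeR adjusted p = 0.0236), the latter lost without rIAPP 1 or rIAPP 2 at 0.32 and 0.33. Slc7a7, a light chain for cationic amino acids that macrophages also express, rose in hIAPP with a log2 fold change of 1.05 ± 0.15 (edgeR adjusted p = 1.16e-04). Macrophage markers were also higher in hIAPP, with no overlap, so their part in that result and that of genotype cannot be told apart.

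Cystine also feeds glutathione synthesis, and Slc7a11 is a target of the antioxidant factor NRF2 as well as of ATF4. Of 10 transsulfuration and glutathione genes, 0 passed in hIAPP against WT with edgeR, beside 15.8% of all tested genes. At an unadjusted p under 0.05, 3 of the 10 were higher and 1 lower, and DESeq2 called 1 higher and limma-voom 0. In rIAPP against WT, 5 rose and 1 fell, beside 14.1% and 12.6% of all tested genes. The gene that fell was Cbs, cystathionine beta-synthase, with a log2 fold change of -1.31 ± 0.18 (edgeR adjusted p = 1.35e-05), while Cth, the next enzyme, rose by 1.11 (edgeR adjusted p = 0.0412), a call lost in 9 of the 18 fits that each left out 1 library. Of 8 NRF2 targets including Slc7a11, 3 rose in hIAPP against WT, beside 8.31% of all tested genes. Hmox1, heme oxygenase 1, which macrophages also express, was one of these 3 with a log2 fold change of 1.34 ± 0.15 (edgeR adjusted p = 6.74e-06). The part of the higher macrophage share in it cannot be told apart from that of genotype. Among the same 8 targets, 2 rose in rIAPP against WT, Gclm and Slc7a11, and 1, Nqo1, fell. All tested genes gave 14.1% and 12.6% there. For Gclm the rIAPP value was a log2 fold change of 0.27, with an adjusted p of 0.00130 from edgeR. Nqo1, a quinone reductase often used to mark NRF2 activity, had a log2 fold change of 0.23 in hIAPP (edgeR adjusted p = 0.481) and fell by 2.05 ± 0.20 in rIAPP (edgeR adjusted p = 1.26e-07). Txnrd1, thioredoxin reductase, had log2 fold changes of 0.04 (edgeR adjusted p = 0.713) and 0.15 (edgeR adjusted p = 0.0652).

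Directly compared, hIAPP and rIAPP islets differed in 1 of the 10 genes. Aldh18a1 was lower in hIAPP with a log2 difference of -0.20 ± 0.06 (edgeR adjusted p = 0.0263), with none of the 10 higher, whereas 13.5% of all tested genes were higher and 14.1% lower, 27.6% in all. At an unadjusted p under 0.05, 2 of the 10 were higher and 1 lower in hIAPP, and among the alternative tools DESeq2 called 2 higher and 1 lower and limma-voom 1 higher and 2 lower. The Aldh18a1 call was lost without hIAPP 1, hIAPP 2, hIAPP 4 or rIAPP 2, with log2 values of -0.16 to -0.18. Phgdh had a log2 difference of 0.45 with a 95% interval of 0.09 to 0.81 (edgeR adjusted p = 0.0592), and it passed without WT 2, WT 4, hIAPP 2 or hIAPP 4, at 0.45 to 0.53. Slc3a2 had 0.13 with an interval of 0.02 to 0.24 (edgeR adjusted p = 0.0641), and it passed without hIAPP 4 or rIAPP 4, at 0.16 in each case. Pycr1 had -0.22 with an interval of -0.43 to 0.00 (edgeR adjusted p = 0.140), and it passed at -0.29 without hIAPP 5 and at -0.38 without hIAPP 5 and hIAPP 6.

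For the remaining 6 genes the 95% interval of the log2 difference included 0. It was -0.18 to 0.23 for Asns, -0.21 to 0.43 for Psat1 and -0.26 to 0.13 for Psph. It was -0.20 to 0.22 for Shmt2, -0.18 to 0.36 for Mthfd2 and -0.41 to 0.69 for Slc7a11, where the low counts leave the widest range. A p that misses the threshold does not show that the levels were equal.

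**Figure D3:**
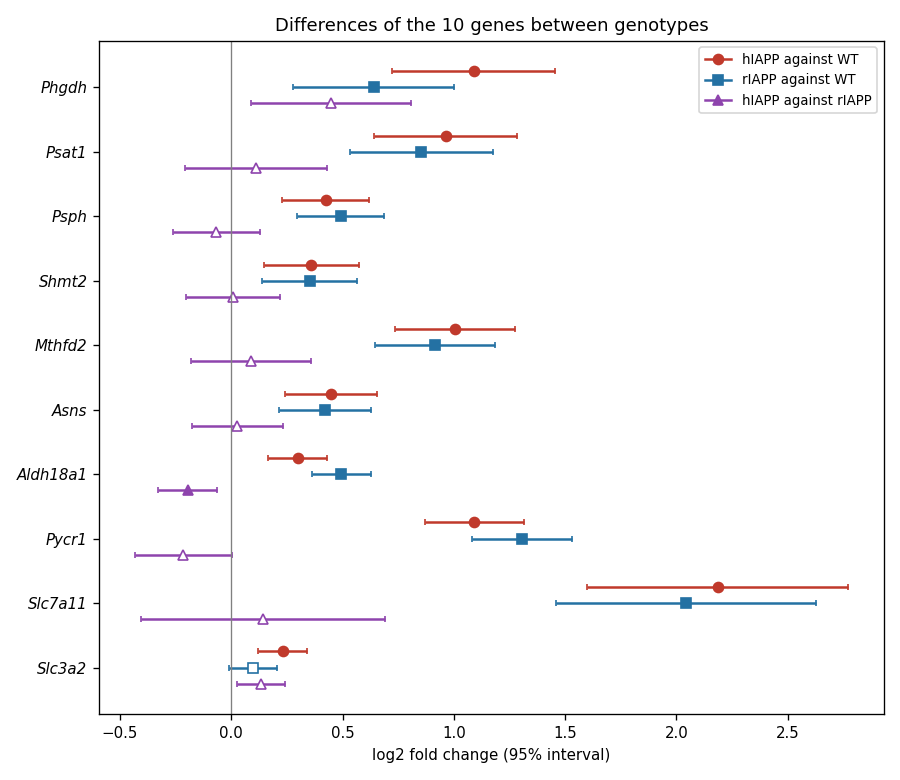
Log2 fold change (horizontal axis) with 95% intervals of the edgeR fit for each of the 10 genes (vertical axis) in the 3 comparisons of genotypes; filled points passed an adjusted p of 0.05. All 10 points were filled for hIAPP against WT, 9 for rIAPP against WT and 1, Aldh18a1, for hIAPP against rIAPP.

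Between genes, levels were compared in CPM per kilobase of merged exon. In WT islets Slc3a2 at 28.0 and Asns at 27.1 stood highest, and their libraries overlapped. Aldh18a1 followed at 17.7, then Mthfd2 at 6.03, Phgdh at 4.90 and Shmt2 at 4.10, neighbours that overlapped. Below them came Pycr1 at 1.93, Psph at 1.498, Psat1 at 1.05 and Slc7a11 at 0.0224. In hIAPP and rIAPP islets Asns stood first, at 36.9 and 36.2, and Slc3a2 second, at 32.9 and 29.97.

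The 10 genes were also summarised per library. As the mean log2 CPM of the 10 genes, centred on the WT mean, the hIAPP libraries were at 0.63, 0.57, 0.72, 0.62, 0.93 and 1.25 in order from hIAPP 1 to hIAPP 6. The rIAPP libraries lay between 0.60 and 0.93, and the WT libraries between -0.09 and 0.21, with WT 4 highest. Library hIAPP 6 was the highest of its group for 9 of the 10 genes, and WT 4 for 7. All 10 genes lay above the highest WT library in 4 of 6 hIAPP and 4 of 6 rIAPP libraries, and at least 8 did in each of the others. The like share of all tested genes was not counted. Without hIAPP 5 and hIAPP 6, 9 of the 10 genes still rose in hIAPP against WT, and Shmt2 at 0.22 did not pass.

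The acinar share was largest in hIAPP 6 and WT 4 within their groups. In rIAPP it was largest in rIAPP 2 at 2.11%, which was highest for 2 of the 10 genes, while rIAPP 1 at 1.66% was highest for 5 and had the highest mean, 0.93. Within hIAPP, Psat1 followed the same order as the acinar share, at 6.36, 7.02, 7.63, 8.49, 10.03 and 12.9 CPM against shares of 0.280%, 0.499%, 0.619%, 0.852%, 1.33% and 2.19%. In a fit of an acinar score within genotypes, a test chosen after these values had been seen, the slopes of all 10 genes were positive, from 0.04 for Slc3a2 to 0.39 for Slc7a11 in log2 CPM per unit of score. Psat1 alone passed, at 0.32 ± 0.05 (edgeR adjusted p = 6.52e-04), where 0.41% of all tested genes passed with a positive and 0.0148% with a negative slope, 0.425% in all. At an unadjusted p under 0.05 the slope was positive for 9 of the 10 genes and for 4.51% of all tested genes.

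With the acinar score as a covariate, 480 of the 20244 tested genes rose in hIAPP against WT and 1190 in rIAPP against WT. Of the 10 genes, Mthfd2, Pycr1 and Slc7a11 still rose in hIAPP against WT, at 0.70, 0.80 and 1.49 on the log2 scale. The values of the other 7 fell short of the threshold, at 0.61 for Phgdh, 0.38 for Psat1, 0.23 for Psph, 0.21 for Asns, 0.16 for Slc3a2, 0.13 for Aldh18a1 and 0.04 for Shmt2. In rIAPP against WT, Pycr1 at 0.95, Slc7a11 at 1.13 and Aldh18a1 at 0.28 still rose. There Mthfd2 was at 0.55, Psph at 0.25, Psat1 at 0.15, Asns at 0.12, Phgdh at 0.05, Slc3a2 at 0.01 and Shmt2 at -0.043, and none of these passed. One transgenic library had an acinar share within the WT range. It was hIAPP 1 at 0.280%, below WT 4 at 0.438%, and 9 of the 10 genes, all but Shmt2, were above their highest WT library there. The other WT libraries had shares of 0.103% to 0.254%, below that of hIAPP 1. This is 1 library, and the part of the acinar share in its levels was not tested.

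**Figure D4:**
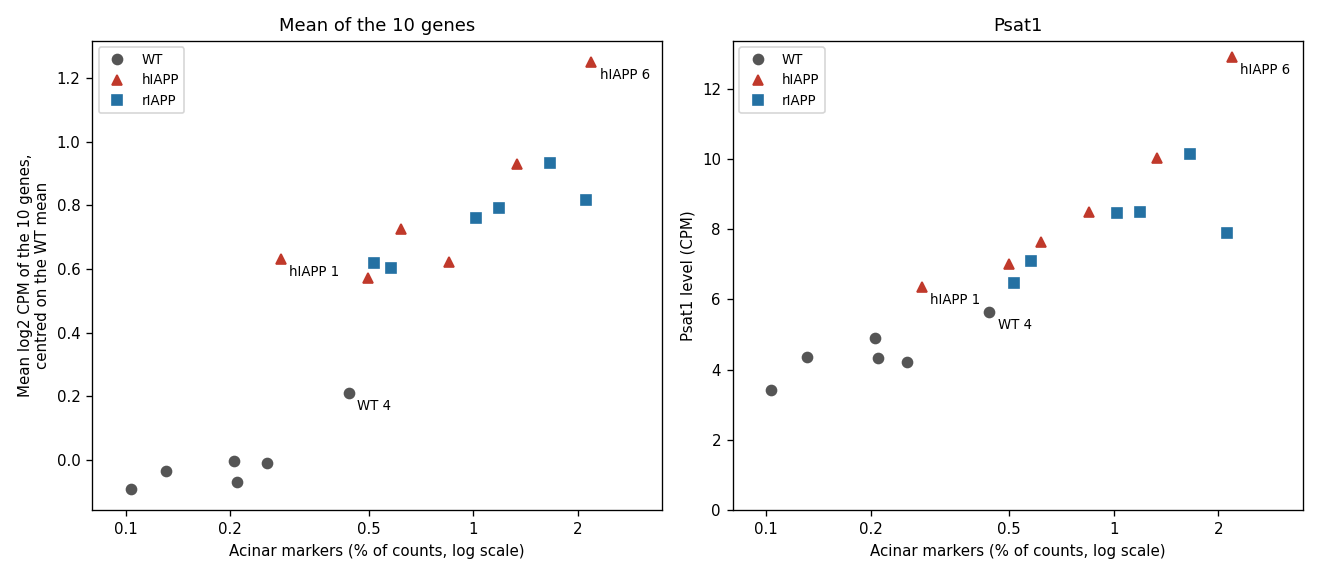
Mean log2 CPM of the 10 genes centred on WT (left, vertical axis) and Psat1 level in CPM (right, vertical axis) against the share of counts in 20 acinar markers (horizontal axes, percent, log scale); each point is a library and colours give the genotype. Within hIAPP, Psat1 followed the order of the acinar share, the mean of the 10 genes was highest in hIAPP 5 and hIAPP 6 without following that order in the other 4 libraries, and hIAPP 1, at 0.280%, stood above WT 4, at 0.438%, in both panels.

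Other genes of the ATF4 response rose beside the 10 genes. Atf4 itself rose from 149 CPM in WT to 184 CPM in hIAPP and 179 CPM in rIAPP, a log2 fold change of 0.30 ± 0.08 (edgeR adjusted p = 0.0146) and 0.26 ± 0.08 (edgeR adjusted p = 0.0197), the latter lost without rIAPP 4 at 0.19. Since ATF4 is controlled largely at translation, its transcript is not a measure of the protein. Of 15 ATF4 regulators and targets outside the 10, Atf4 included, 12 rose in hIAPP against WT, beside 8.31% of all tested genes. Their median log2 fold change was 1.08. In rIAPP against WT 13 of the 15 rose, beside 14.1% of all tested genes, with a median of 0.76. The rIAPP call was lost for Atf3 in 13 and for Ddit3 in 6 of the 18 fits that each left out 1 library. Nupr1, a stress-induced chromatin factor, rose from 14.4 CPM to 143 CPM and 85.8 CPM, and Sesn2, a sensor that restrains mTORC1, from 24.1 CPM to 40.8 CPM and 44.1 CPM. Chac1, which degrades glutathione, had log2 fold changes of 2.13 ± 0.35 (edgeR adjusted p = 3.08e-04) and 1.69 ± 0.34 (edgeR adjusted p = 7.98e-04). With the acinar score in the fit, 6 of the 15 rose in hIAPP, and 2 rose and 1 fell in rIAPP. In that fit 480 of the 20244 tested genes rose in hIAPP, and 1190 rose and 915 fell in rIAPP.

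Of these 15 genes, 4 were higher in hIAPP than in rIAPP, namely Ddit3, Trib3, Vldlr and Gdf15, beside 13.5% of all tested genes. Gdf15, at 0.79 CPM in hIAPP and 0.43 CPM in rIAPP, passed narrowly (edgeR adjusted p = 0.0494). Vldlr did not pass in hIAPP against WT (edgeR adjusted p = 0.0749). Ddit3, which encodes the stress factor CHOP, was at 15.1 CPM in WT, 38.8 CPM in hIAPP and 21.3 CPM in rIAPP, and had a log2 difference of 0.87 ± 0.17 between the transgenic genotypes (edgeR adjusted p = 4.89e-04). Trib3, a pseudokinase that CHOP and ATF4 induce, was at 1.17, 9.51 and 4.37 CPM, a difference of 1.12 ± 0.29 (edgeR adjusted p = 0.00681) that was 0.72 without hIAPP 6. Whether these 4 differ from the 10 genes in this respect was not tested. Of the eIF2α kinases, Eif2ak3, which encodes PERK, rose in rIAPP against WT with a log2 fold change of 0.41 (edgeR adjusted p = 2.60e-05) and had 0.04 in hIAPP (edgeR adjusted p = 0.697). Eif2ak2, which encodes the double-stranded RNA sensor PKR, fell by 0.54 ± 0.10 in hIAPP against WT (edgeR adjusted p = 0.00120).

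Among 8815 other genes with a mean of at least 10 CPM, those whose centred log2 profile over the 18 libraries lay nearest to the mean profile of the 10 genes were Emilin1, Sesn2, Slc7a1, Gpt2 and Lpin2. Their root mean square differences were 0.143, 0.163, 0.165, 0.199 and 0.204 on the log2 scale. Of the 10 genes themselves, which are part of that mean, Psat1 at 0.169 and Mthfd2 at 0.189 lay nearest and Slc7a11 at 1.09 farthest. Emilin1 encodes an extracellular matrix glycoprotein, Slc7a1 a transporter of cationic amino acids and Lpin2 a phosphatidate phosphatase. Emilin1 rose by 0.73 ± 0.09 in hIAPP (edgeR adjusted p = 2.04e-05) and by 0.72 ± 0.09 in rIAPP (edgeR adjusted p = 4.71e-06) on the log2 scale.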

How the data were processed

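The deposited values were estimated counts per gene symbol for islets of 18 mice, which the authors left without normalization, per the table itself. STAR, HTSeq, GRCm38 and mm10 are named without versions, per the submitters' processing notes. The annotation, the strand setting and the step behind 182064 fractional values are not stated there. Per the labels' protocols, RNA came from an RNeasy kit and ribosomal RNA was depleted. The counts were rounded to whole numbers and tested with edgeR 4.0.16 (R 4.3.3). Low counts were removed by filterByExpr with genotype as the group, libraries were scaled by TMM, and 1 quasi-likelihood model with a mean for each genotype was fitted to the 18 libraries together. Two-sided p values were adjusted by Benjamini-Hochberg over 20244 genes and called below 0.05. CPM denote counts relative to the TMM-scaled library total, and a prior count of 2 was added for log2 CPM. Precision taken from counts covers counting error only. Of the 54186 symbols, 49732 matched GENCODE M21, the source of positions on GRCm38 and of merged exon lengths. Promoter windows came from RefSeq.

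Libraries of 1 genotype were compared in 45 pairs, and none repeated another, since the chi-square of their counts was 26.1 to 247.9 per degree of freedom. The 10 genes and the gene lists were chosen with earlier results of these data known. Named genes outside the 10 were ATF4 targets, isozymes, transporters and redox genes picked by role, the gene with the smallest p in each direction of each remaining list, and the 5 genes with the most similar profile. Vldlr, Gdf15, Eif2ak3, Gldc and Got1 were named after their values were seen. Some of the genes under this rule are not reported here. Alternatives were DESeq2 1.42.0, limma-voom (limma 3.58.1) with sample weights, other scaling and filters, fits of the 2 genotypes alone, covariates for acinar score, macrophage score or mouse number, and leaving out libraries. The scripts were tested on simulated data. Matplotlib 3.10.9 under Python 3.11.15 drew the figures.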

Additional observations from a re-analysis of the deposited data

Results flagged for a closer look

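In 3 of the 30 sets formed by a gene and a genotype, 1 library stood far from the other 5, judged by its gap to the nearest library as a share of the group's range against Dixon's 95% critical value. Chance flags about 1 in 20 such sets, and the libraries are shared between genes. Aldh18a1 in hIAPP 6 was at 108.6 CPM against 78.0 to 89.4 CPM in the other hIAPP libraries, a gap of 0.626 of the range. Slc3a2 in hIAPP 6 was at 135 CPM against 106.3 to 116 CPM, a gap of 0.664. Slc3a2 in rIAPP 4 was at 114.5 CPM against 102 to 105 CPM, a gap of 0.740.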

How the results depend on the processing

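No paired analysis was possible because replicate numbers follow the order of the labels and mouse numbers are not shared between genotypes. Over all alternatives, 817 of 870 values of the 10 genes kept their side of the threshold and, where called, their direction. Another 31 no longer passed, 19 newly passed and 3 reversed after being called. Of the 817, 24 were not called and changed sign. Of 3480 values of other named genes, 3248 were kept by the same rule, and 66 of these were not called and changed sign. In hIAPP against WT, 9 to 10 genes rose when any 1 library was left out, and 9 to 9 in rIAPP against WT. In hIAPP against rIAPP, leaving out 1 library gave 0 to 2 higher and 0 to 2 lower genes, and the median of the 10 genes was -0.070 without hIAPP 6. For that comparison 0 genes were lower with library totals, mouse number as a covariate or the 2 genotypes alone, and 2 without hIAPP 5 and hIAPP 6 or with limma-voom. There 1 was higher with mouse number, the 2 genotypes alone or limma-voom, 2 with DESeq2 and 3 with the acinar score. The median was -0.14 without hIAPP 5 and hIAPP 6 and -0.043 with limma-voom. With the acinar score 3 genes rose in hIAPP and 3 in rIAPP against WT, and in rIAPP Shmt2 was at -0.043, Slc7a5 at -0.039, Cth at -0.59 and Cuzd1 at -0.25. Library totals moved the median of all genes to 0.11 in hIAPP and 0.10 in rIAPP against WT, and the 10 genes stayed above it in both. Macrophage shares did not overlap between genotypes, so that score and genotype cannot be told apart. With it, 0 genes rose in hIAPP against WT, where Psat1 was at -0.057, Shmt2 -0.070, Atf3 -1.51, Mthfd2l 0.10, Mthfd1 0.38, Aldh1l2 -0.35, Slc7a5 -0.28, Hmox1 -0.088, Slc7a7 -0.13, Cuzd1 -1.83, Mafa 0.23, Lpin2 -0.12, Gldc -0.15 and Got1 -0.11. Against rIAPP the median of the 10 genes was then -0.54, with Ddit3 at -0.31, Trib3 -1.14, Atf3 -2.83, Hmox1 -0.74, Eif2ak2 0.066, Slc7a7 -0.74 and Pdgfrb -0.19. For all genes, higher and lower counts in hIAPP against WT went from 1683 and 1525 to 3139 and 480 with library totals, 480 and 277 with the acinar score, 6 and 24 with the macrophage score and 1037 and 638 without hIAPP 5 and hIAPP 6. In rIAPP against WT they went from 2860 and 2557 to 4554 and 1404 with library totals and 1190 and 915 with the acinar score. In hIAPP against rIAPP the macrophage score gave 325 and 569. The cause of these changes was not tested. Depth limits Slc7a11 most, with 31 to 71 counts per WT library.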
